A study of Mus musculus with 7 samples.

Results

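The cells described here are those that the authors' deposited cell table names proliferating CD4+ T cells and Tregs together, called proliferating CD4 cells below. They were chosen by that name alone and number 414 of 28644 cells, which is 3.02% of the 13692 T cells and 8.50% of the 4871 CD4 T cells. The study took the tumour-bearing brain hemisphere of mice that carried CT-2A, a mouse glioma line, injected into the brain. KO mice (n = 4) carried the tamoxifen-inducible Sall1-CreERT2 driver (allele B6;129-Sall1 tm5(cre/ERT2)Ryn) and floxed Siglece (B6.129P2-Siglece tm1Bcgen), and WT mice (n = 3) carried floxed Siglece without the driver. Mice of both genotypes were 8 to 12 weeks old at engraftment and received 2.5 mg tamoxifen into the peritoneum daily from day 7 to day 21 and every other day afterwards. Cells were frozen, thawed and sorted as live CD45+ and/or CD11b+ cells, and each mouse gave 1 droplet 5′ library of UMIs, the molecule counts of single-cell sequencing. Sall1 is a transcription factor that marks microglia among brain immune cells, so the driver is not aimed at T cells.

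Regulatory T cells (Tregs) are CD4 T cells that restrain other lymphocytes and depend on the transcription factor Foxp3. They take up interleukin-2 through the high-affinity receptor chain Il2ra but make little of it themselves, whereas conventional helper cells of the Th1 kind make interferon gamma and interleukin-2 after activation. A dividing T cell switches on DNA replication genes at the G1/S transition and spindle, kinetochore and mitotic cyclin genes at G2/M, and these programs run in the same way in CD4, CD8 and regulatory cells.

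The libraries gave 30, 75, 34 and 98 proliferating CD4 cells in KO replicates 1 to 4, and 11, 92 and 74 in WT replicates 1 to 3. The cells held a median of 9329 UMIs (range 1613 to 34435) and 4445295 UMIs in all. With 11 cells, WT replicate 1 fell below the minimum of 20 cells and entered no fit, so gene comparisons between genotypes set 4 KO mice against 2 WT mice. Of the 414 cells, 10 had a barcode that also occurred in another library. How doublets were handled is not given in the sources used here, and no doublet caller was run.

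The markers showed a dividing population with mostly CD4 cells. Cd4, the helper co-receptor, had a UMI in 320 cells (77.3%, exact 95% binomial interval 73.0 to 81.2), against 6.32% of proliferating CD8 cells. Mki67, a marker of cycling cells, had a UMI in 337 cells (81.4%), against 15.8% of Tregs, 18.5% of Th1 cells and 98.3% of proliferating CD8 cells. These shares depend on depth, so cells were also thinned to 5247 UMIs. Cd4 then had a UMI in 62.8% of proliferating CD4 cells, below the 71.6% of Tregs and 91.7% of Th1 cells and above the 4.67% of proliferating CD8 cells. For Mki67 the shares were 76.0%, 26.7%, 18.6% and 95.1% in the same order. The summed level of Mki67, Top2a, Cdk1 and Ccna2 ranged from 1223 to 1711 CPM (UMIs scaled to a total of 1000000 for the cells summed in a mouse) over 6 mice, above the 107 to 227 of Tregs and the 80.5 to 141 of Th1 cells, and did not overlap with the 1801 to 2354 of proliferating CD8 cells. By the deposited cycle phase, 47.8% of the cells were in G2M, 39.6% in S and 12.6% in G1, while none of the 475 proliferating CD8 cells were in G1. Macrophage and monocyte genes were not at 0, with 7 genes summing to 192 to 677 CPM against 563 to 1869 CPM in Tregs, and red blood cell genes were at 0 in all 6 mice.

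UMIs of CD8 co-receptor genes were found in part of the population. Cd8a or Cd8b1 had a UMI in 91 cells, of which 48 also had a Cd4 UMI and 43 did not, and 51 cells had a UMI of none of the 3 genes. Cd8a alone had a UMI in 13.0% of the cells and Cd8b1 in 18.4% (median 9329 UMIs), against 3.93% each in B cells (7302 UMIs), 7.77% and 12.6% in Th1 cells and 81.7% and 81.1% in proliferating CD8 cells. With cells thinned to 5247 UMIs, the shares with a UMI were 10.7% for Cd8a and 14.2% for Cd8b1, against 1.85% and 1.38% in B cells. Other CD4 annotations also held such UMIs at that depth, 8.27% and 12.8% in Th1 cells and 4.41% and 12.3% in Tregs. The shares were higher, 26.5% and 29.7%, in cells annotated as follicular helper (Tfh). They were 16.9% and 16.6% in naive or early-activated CD4 cells, of which 28 reached that depth. The share with a Cd8a or Cd8b1 UMI was 10.0%, 21.3%, 29.4% and 33.7% in KO replicates 1 to 4 and 36.4%, 10.9% and 20.3% in WT replicates 1 to 3, so the genotypes overlapped. In KO replicate 4 the 2 genes summed to 423 CPM, against at most 168 CPM in the other 5 mice with at least 20 cells. The numbers of genes called between genotypes and in the Foxp3 split, and a few of those genes, are also given below without these cells. All other results include them.

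Promoters of 4 cycle genes are given as reference sequence for the lists used below. The mitotic genes Kif11 (a spindle motor) and Ube2c (a ubiquitin-conjugating enzyme that acts with the anaphase-promoting complex), and the replication genes Mcm5 (a subunit of the replicative helicase) and Dtl (an adaptor that targets Cdt1 for destruction), are members of the G2/M and G1/S lists used below. Members of each list whose promoter holds the motif searched for in that list were ranked by their mean log2 difference to Tregs. The leading 2 of each list are given, with 1 chromosome left out of the choice, so their high levels in these cells are part of how they were picked. Each line gives the 150 bases before the start site, on the gene's strand, from RefSeq on GRCm38.p6. For Kif11 and Ube2c capitals mark TTTGAA (the core of the cell cycle element CHR) and CCAAT (bound by NF-Y), on either strand. For Mcm5 and Dtl they mark TTTGGCGC or TTTCGCGC (E2F motifs) and CCAAT, on either strand.
Kif11, chr19:37376232-37376381, plus strand: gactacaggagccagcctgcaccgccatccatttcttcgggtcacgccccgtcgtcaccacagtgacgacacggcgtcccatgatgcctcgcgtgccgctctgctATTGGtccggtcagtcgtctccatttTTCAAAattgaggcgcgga
Ube2c, chr2:164769779-164769928, plus strand: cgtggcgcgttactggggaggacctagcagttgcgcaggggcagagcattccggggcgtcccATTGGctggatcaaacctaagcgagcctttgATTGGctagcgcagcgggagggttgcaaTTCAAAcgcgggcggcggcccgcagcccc
Mcm5, chr8:75109359-75109508, plus strand: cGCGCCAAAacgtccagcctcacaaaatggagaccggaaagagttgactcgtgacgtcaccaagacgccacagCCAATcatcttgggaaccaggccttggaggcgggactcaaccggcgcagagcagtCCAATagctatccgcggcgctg
Dtl, chr1:191575545-191575694, minus strand: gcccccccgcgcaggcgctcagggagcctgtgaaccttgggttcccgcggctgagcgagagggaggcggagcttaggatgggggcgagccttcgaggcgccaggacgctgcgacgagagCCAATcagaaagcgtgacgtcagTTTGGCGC
Among the 26 of 30 G2/M genes with a promoter in the table, 8 (30.8%) held TTTGAA, 23 (88.5%) held CCAAT and 1 (3.85%) held TTTGGCGC or TTTCGCGC, searched on both strands. Among the 26 of 30 G1/S genes with one, 2 (7.69%) held TTTGAA, 14 (53.8%) held CCAAT and 4 (15.4%) held TTTGGCGC or TTTCGCGC. Over the 27025 genes of the table, each counted if any of its promoters held the motif, the shares were 10.5%, 27.7% and 0.488%. The match of a motif is a description of these letters and shows no binding.

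The cycle program separated proliferating CD4 cells from Tregs and Th1 cells and was shared with proliferating CD8 cells. These contrasts carry no test, since the annotations were made from the same cells and genes, and they are given as the difference in log2(CPM + 1) within each of 6 mice (mean ± SD). A gene was counted where it reached a mean of 20 CPM on one side and differed at least 2-fold in the same direction in every mouse. Levels are UMIs summed over the cells of a mouse, in which fewer expressing cells and less RNA per cell cannot be told apart. Against Tregs, 314 of 6868 genes were counted higher (4.57%) and 91 lower (1.32%). Against Th1 cells, 307 of 6691 were higher (4.59%) and 43 lower (0.643%). Against proliferating CD8 cells, 92 of 6520 were higher (1.41%) and 45 lower (0.69%).

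Of 30 G2/M genes, 28 were counted higher than in Tregs and 30 higher than in Th1 cells, with median differences of 3.76 and 4.16, where the median of all genes was −0.04 and 0.01. Ube2c stood at 451 ± 159 CPM, against 25.2 ± 14.0 in Tregs and 12.6 ± 3.23 in Th1 cells. Top2a, the topoisomerase that untangles replicated DNA, stood at 458 ± 52.7 CPM, against 53.8 ± 14.4 and 44.2 ± 10.4. Of the 29 G1/S genes that reached the level, 19 were counted higher than in Tregs and 18 higher than in Th1 cells. Mcm5 was at 160 ± 24.6 CPM, against 29.5 ± 19.2 in Tregs and 36.0 ± 12.5 in Th1 cells. Of 17 enzymes of nucleotide and one-carbon metabolism, 10 were counted higher than in Tregs, among them Shmt1 (serine hydroxymethyltransferase) at 26.3 ± 12.1 CPM against 1.71 ± 1.50.

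Against proliferating CD8 cells no G2/M or G1/S gene was counted either way. All 30 G2/M genes had a mean difference below 0, with a median of −0.55, whereas the G1/S median was −0.10 and 9 of 29 were above 0. Top2a differed by −0.62 ± 0.22 and was lower in all 6 mice, while Mcm5 differed by 0.01 ± 0.21. The deposited G2M share was 70.9% in proliferating CD8 cells against 47.8%, and its part in these differences was not tested.

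Most Treg genes had mean levels below those of Tregs, and 4 of 23 were counted lower, where 1.32% of all genes were. The means of the Treg genes were above those of proliferating CD8 cells, and against Th1 cells they were divided. Foxp3 was at 262, 185, 176 and 184 CPM in the 4 KO mice and 304 and 168 CPM in WT replicates 2 and 3. In Tregs the same mice gave 699, 475, 422, 469.6, 629 and 499.5 CPM, so every mouse was lower in proliferating CD4 cells and the ranges did not overlap. The mean difference was −1.33 ± 0.17 against Tregs, 3.83 ± 0.79 against Th1 cells and 6.69 ± 1.28 against proliferating CD8 cells. Of the 23 Treg identity genes that reached the level, 22 had a mean below that of Tregs (median −1.11), and Foxp3, Itgae, Izumo1r and Il10 were counted lower. Il10, the suppressive cytokine interleukin-10, was at 26.4 ± 13.4 CPM against 159 ± 34.2 in Tregs and had no UMI in proliferating CD8 cells of these 6 mice. Il2ra (573 ± 124 CPM) and Ikzf2, the transcription factor Helios (290 ± 90.7 CPM), were counted higher than in Th1 cells (147 ± 54.0 and 57.5 ± 14.6 CPM). Against Th1 cells 4 of 21 Treg identity genes were counted higher and none lower, 13 had a mean above 0 and the median difference was 0.21. Against proliferating CD8 cells 12 of 21 Treg identity genes were counted higher and none lower, with a median difference of 1.74. The remaining genes led by size against proliferating CD8 cells were Penk (preproenkephalin) at 290 ± 81.3 against 8.27 ± 6.56 CPM, Itgb8, Tnfrsf8 and Ebi3 on the higher side. On the lower side were the granzymes Gzmf and Gzmc, Cd7, Klrb1c, Cd8a, Klra7, Cd244a and Trgv2.

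Most effector genes of the helper program had a mean difference below 0 against Th1 cells, and 4 of 19 were counted lower, where 0.643% of all genes were. Against Tregs 2 of 19 were counted higher and none lower, 8 had a mean above 0 and the median difference was −0.26. Of 19 Th1 and effector genes, 4 were counted lower than in Th1 cells and none higher, 4 had a mean above 0 and the median difference was −1.05. Ifng, interferon gamma, was at 310.3 ± 217 CPM against 989 ± 257 in Th1 cells and 117 ± 42.8 in Tregs. Csf2, the growth factor GM-CSF, was at 49.7 ± 35.7 CPM, below the 183 ± 68.4 of Th1 cells and above the 4.51 ± 3.49 of Tregs. Cxcr6, a chemokine receptor of tissue T cells, was lower than in Th1 cells by −2.20 ± 0.57 in log2 terms. Tbx21, the Th1 transcription factor, was at 92.7 ± 27.7 CPM against 112 ± 14.9 in Tregs, 101 ± 17.1 in Th1 cells and 115 ± 25.4 in proliferating CD8 cells, and each mean log2 difference was smaller than its SD over mice (−0.32 ± 0.46, −0.16 ± 0.43 and −0.32 ± 0.54). Leading genes on the higher side against Tregs were the chemokines Xcl1 (209 ± 128 against 7.96 ± 8.75 CPM) and Ccl1 (220 ± 96.4 against 18.4 ± 25.6 CPM). Xcl1 is on the CD8 and cytotoxic list and Ccl1 is on none of the lists.

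The listed interferon-response and dissociation stress genes had mean levels below those of Tregs. Of them, 2 of 22 and 2 of 12 were counted lower, where 1.32% of all genes were. None of 22 interferon-response genes had a mean above that of Tregs (median −1.13), and 2 were counted lower. Irf7, a transcription factor of the interferon response, was at 40.7 ± 18.6 CPM against 114 ± 42.9. The corresponding medians were −0.27 against Th1 cells and 0.22 against proliferating CD8 cells. All 12 genes of the dissociation stress list were below their level in Tregs (median −1.05) and in Th1 cells (median −0.89), of which 2 were counted lower than in Tregs and none than in Th1 cells. Fos was at 619 ± 154 CPM against 2037 ± 652 in Tregs and 965 ± 199 in Th1 cells. Btg1, an antiproliferative gene, was counted lower than in Tregs, at 537 ± 57.8 against 1541 ± 328 CPM. The part of dissociation and of depth in these differences was not tested beyond thinning: Tregs had a median of 3376 UMIs, and when cells were thinned to 5247 UMIs the genes counted lower numbered 28 instead of 91. This kept the 181 of 1058 Tregs that reached that depth, so equal depth and the loss of shallow Tregs cannot be told apart. The 7 macrophage and monocyte genes were also lower than in Tregs in every mouse, at 230, 677, 192, 361, 418 and 626 CPM against 1869, 1866, 563, 1347, 1179 and 884 CPM (KO replicates 1 to 4, WT replicates 2 and 3), and their part in these differences was not tested.

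**Figure D1:**
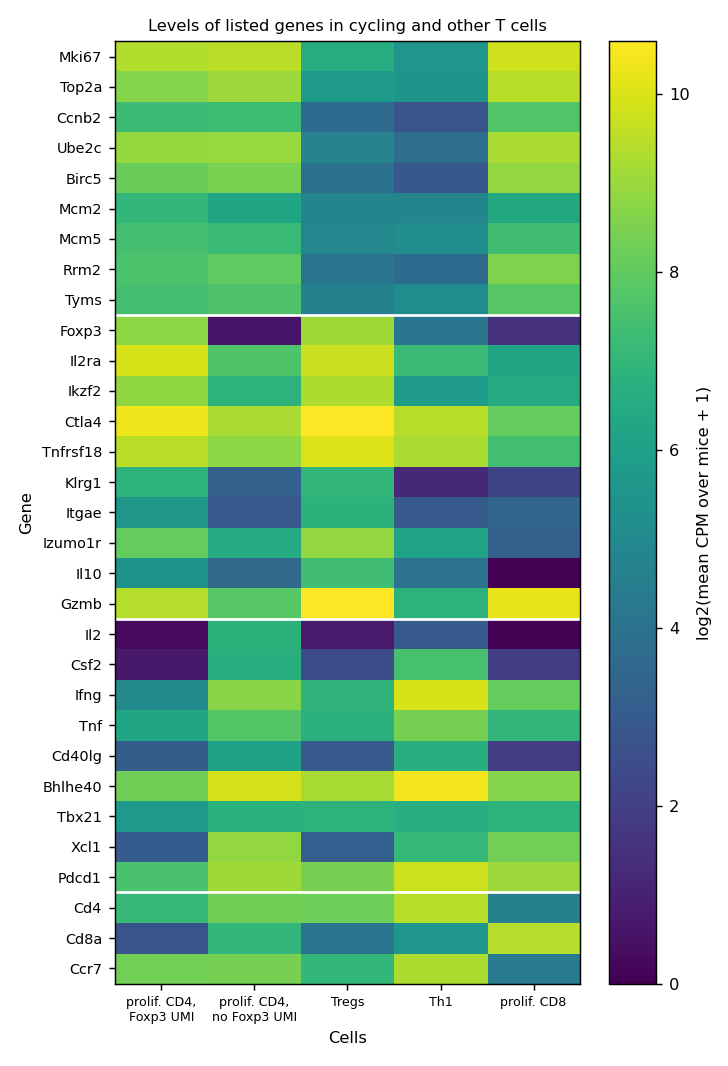
Mean level of listed genes, as log2(mean CPM over mice + 1), in proliferating CD4 cells with and without a Foxp3 UMI and in 3 other annotations, with white lines between cycle genes, Treg-associated genes, effector genes and others. Cycle genes are bright in both kinds of proliferating CD4 cells and in proliferating CD8 cells, and Il2, Csf2 and Xcl1 are dark in cells with a Foxp3 UMI.

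A Foxp3 UMI was found in 185 of 414 proliferating CD4 cells, 44.7% (exact 95% binomial interval 39.8 to 49.6, counting error only). The share was 50.0%, 40.0%, 38.2% and 35.7% in KO replicates 1 to 4 and 45.5%, 63.0% and 39.2% in WT replicates 1 to 3. WT replicate 2 was the highest mouse, and the remaining 2 WT mice lay among the KO mice. Of the 185 cells, 164 had at least 2 Foxp3 UMIs. The same share was 61.7% in Tregs (median 3376 UMIs), 2.88% in Th1 cells (5088 UMIs) and 1.47% in proliferating CD8 cells (10372 UMIs). B cells, which should lack the gene, gave 0.952% at a median of 7302 UMIs.

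Detection of a Foxp3 UMI depends on depth, so cells were also compared after thinning to 2000 UMIs, which kept 413 of the proliferating CD4 cells and 938 of 1058 Tregs. A Foxp3 UMI then remained in 26.6% of proliferating CD4 cells, 51.7% of Tregs, 1.76% of Th1 cells and 0.313% of proliferating CD8 cells. Many thinned Tregs also lacked a Foxp3 UMI, so a cell without one need not lack Foxp3 expression. At 5247 UMIs, the depth that 90% of the cells reached, the share was 38.1 ± 5.66% in KO (n = 4) and 46.0 ± 17.3% in WT (n = 2). The difference of −7.93 percentage points was within the spread (exact two-sided permutation test, p = 0.467, smallest possible 0.0667), and it became 4.32 without WT replicate 2.

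**Figure D2:**
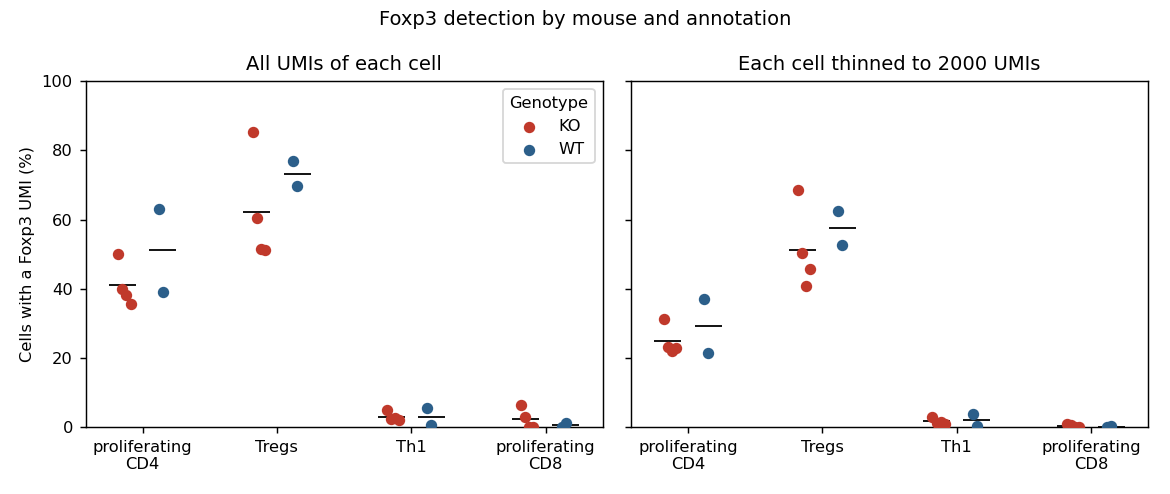
Percent of cells with a Foxp3 UMI per mouse (points, mice with at least 20 cells of the annotation) and group mean (bars) in 4 annotations, with all UMIs on the left and after thinning each cell to 2000 UMIs on the right. Proliferating CD4 mice lie between 35.7% and 63.0% before thinning, above every Th1 and proliferating CD8 mouse, and overlap with the Treg mice, which lie between 51.2% and 85.2%.

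Dividing cells with and without a Foxp3 UMI were compared with each other. The comparison was made within the 4 mice with at least 20 cells on both sides (KO replicates 2 and 4, WT replicates 2 and 3), on 152 against 187 cells, and Foxp3 itself was not tested. Of 6167 genes, 577 passed an adjusted p under 0.05 in edgeR's quasi-likelihood test with mouse as a term (9.36%), 270 higher with a Foxp3 UMI (4.38%) and 307 lower (4.98%). DESeq2 called 230 genes, of which 227 were among the 577, and without KO replicate 4 there were 375 of 5816 tested. Over all 7 mice, cells with a Foxp3 UMI had a median of 10647 UMIs against 8363, and 18.4% against 24.9% of them had a Cd8a or Cd8b1 UMI. The mice differed in this: of the 4 in the fit, KO replicate 4 had 22.9% against 39.7% and WT replicate 3 had 34.5% against 11.1%. Thinned to equal UMIs, 292 of 3713 genes tested were called, of which 273 were among the 577. The sides were still set by all UMIs of a cell, so thinning cannot remove the part of depth in the split itself. Without cells that had a Cd8a or Cd8b1 UMI (3 mice) 321 of 4689 were called, of which 292 were among the 577.

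Treg identity genes were mostly higher in cells with a Foxp3 UMI. Of 20 tested, 14 were higher and 1 lower, with a median log2 change of 1.06 where the median of all genes was 0.00. Il2ra was at 735, 997, 815 and 1382 CPM in cells with a Foxp3 UMI of KO replicates 2 and 4 and WT replicates 2 and 3, against 203, 120.1, 256 and 229 CPM in cells without. Every mouse was higher and the ranges did not overlap (log2 2.29 ± 0.20 SE, adjusted p = 5.08e-07, edgeR). Klrg1, an inhibitory lectin-like receptor of effector Tregs, was at 146, 69.2, 143 and 91.3 CPM against 6.25, 1.52, 28.9 and 1.94 CPM (log2 3.78 ± 0.37, adjusted p = 2.83e-09, edgeR). Itgae, the integrin CD103, rose by 2.84 ± 0.46, Il10 by 2.69 ± 0.49, Ikzf2 by 2.37 ± 0.20, Izumo1r (folate receptor 4) by 1.87 ± 0.19 and Ctla4 by 1.43 ± 0.13. Nrp1, often used as a marker of thymic Tregs, went the other way, at 7.14, 8.65, 27.7 and 17.8 against 137, 50.2, 93.8 and 38.7 CPM (log2 −2.20 ± 0.33, adjusted p = 3.26e-06, edgeR). Tigit, Entpd1, Ebi3, Areg and Socs2 did not pass the test. Areg, the growth factor amphiregulin, differed by 1.51 ± 0.72 (adjusted p = 0.433, edgeR) and passed without cells that had a Cd8a or Cd8b1 UMI (log2 2.24, adjusted p = 1.64e-06, edgeR).

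Several genes outside that list were among the largest increases. Tnfrsf8, the receptor CD30, was at 82.1, 51.9, 30.8 and 60.9 against 6.25, 3.04, 3.61 and 3.87 CPM (log2 3.71 ± 0.44). Its ligand Tnfsf8 had the opposite pattern, at 7.14, 2.88, 1.54 and 10.1 against 71.8, 73.0, 162 and 180.2 CPM (log2 −4.68 ± 0.36, adjusted p = 6e-14, edgeR). Gzmb, granzyme B, was higher by 1.79 ± 0.14 and was the only one of 9 tested CD8 and cytotoxic genes to be higher. The chemokine receptor Ccr2 rose by 2.20 ± 0.32. Rln3, Laptm4b, Gm6637, Arl5c, Rapsn and the receptor segment Trav13-2 were also among the 10 largest increases. Trav13-2 had 55 UMIs with and 1 UMI without a Foxp3 UMI, a pooled ratio of 58.3 (exact 95% counting interval 10.0 to 2344). It gave no tested value without KO replicate 2, without WT replicate 2, after thinning, with at least 10 cells per mouse, with no mouse term, or without cells that had a Cd8a or Cd8b1 UMI.

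Several effector cytokine and ligand genes were lower in cells with a Foxp3 UMI, and Il2, Ccl1 and Csf2 were nearly absent from them. Of the cells without a Foxp3 UMI, 57 (24.9%) had a Cd8a or Cd8b1 UMI over all mice, and 35 of these had no Cd4 UMI. These levels may therefore not be those of helper cells alone, which was not tested. Il2, interleukin-2, was at 125, 7.60, 318 and 17.0 CPM in cells without, and its 142 UMIs there stood against 0 whole UMIs in cells with one, at least 44.6-fold higher against a floor of 3 counts over the group, with an exact lower counting limit of 35.8 (adjusted p = 1.63e-14, edgeR). Under DESeq2 Il2 did not pass (adjusted p = 0.0622). Ccl1, a chemokine, had 671 UMIs without and 1 with, a ratio of 633 (exact counting interval 113 to 25036), and Csf2 had 178 and 1, a ratio of 168 (29.7 to 6668). Xcl1, from the CD8 and cytotoxic list, was at 444, 439, 1270.4 and 126 CPM without and 0, 5.77, 13.9 and 10.1 CPM with a Foxp3 UMI (log2 −6.19 ± 0.32, adjusted p = 7.13e-12, edgeR). Ifng, for which fractional values made up 14.1% of the UMIs, changed by −3.82 ± 0.27, Cd40lg, which licenses antigen-presenting cells, by −3.07 ± 0.38 and Tnf by −1.56 ± 0.18. Of 19 Th1 and effector genes tested, 12 fell and 2 rose, among them Il12rb1, with a median of −1.56 that was the same with Il2 set to its bound. Tgfbr3, a co-receptor for TGF-beta, had 60 UMIs without and 0 with, at least 18.9-fold higher against the same floor, with an exact lower counting limit of 14.9. Ifitm1 (log2 −5.23 ± 0.24) and Nrgn (−5.14 ± 0.59) completed the 10 largest decreases together with Klri2, Cd8a and Tnfsf8, and Nrgn did not pass without WT replicate 3 or without cells that had a Cd8a or Cd8b1 UMI.

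**Figure D3:**
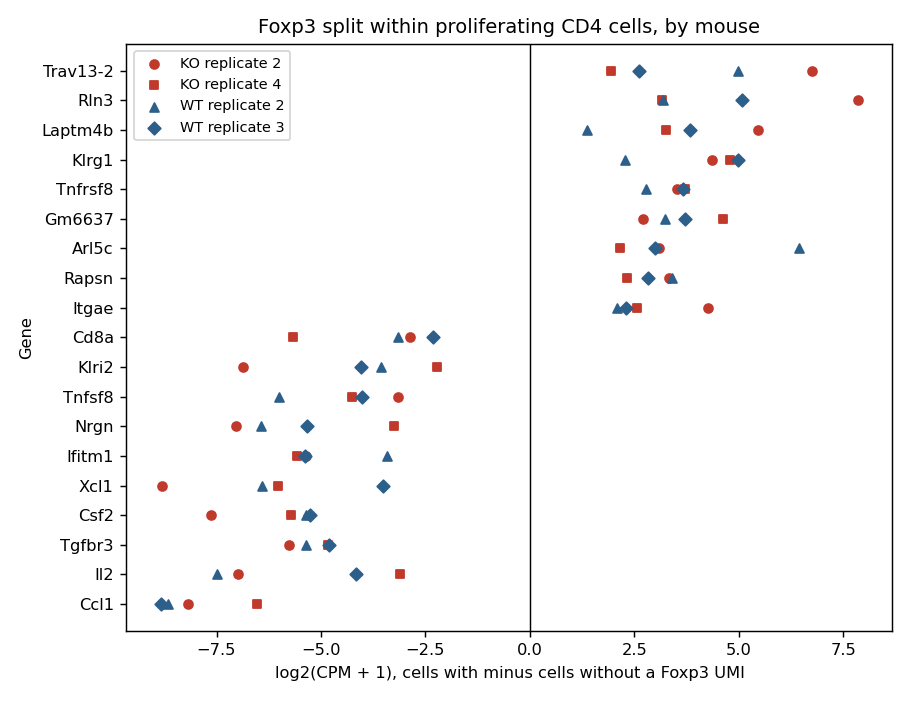
Difference in log2(CPM + 1) between proliferating CD4 cells with and without a Foxp3 UMI, 1 point per mouse (4 mice), for 9 of the 10 largest increases and the 10 largest decreases among called genes that moved the same way in every mouse. All points of the upper 9 genes lie right of 0 and all points of the lower 10, from Cd8a down to Ccl1, lie left of it.

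Genes of CD8 and natural killer cells were lower with a Foxp3 UMI. Of 9 CD8 and cytotoxic genes tested, 8 fell, with a median of −2.30. Cd8a was at 10.7, 5.77, 1.54 and 5.07 CPM against 84.3, 342, 21.7 and 29.1 CPM (log2 −4.25 ± 0.40), highest in KO replicate 4. Klrd1, the receptor chain CD94, was at 7.14, 11.5, 10.8 and 10.1 CPM against 297, 199, 79.4 and 69.7 CPM, and its change of −3.75 ± 0.30 was −3.68 without cells that had a Cd8a or Cd8b1 UMI (adjusted p = 3.34e-10, edgeR). Cd4 was itself lower with a Foxp3 UMI, at 125, 141, 185 and 93.9 against 359, 286, 365 and 300.3 CPM (log2 −1.30 ± 0.16, adjusted p = 2.7e-08, edgeR). Over all mice, a Cd4 UMI was found in 79.5% of cells with and 75.5% of cells without a Foxp3 UMI, at medians of 10647 and 8363 UMIs. This share was higher with a Foxp3 UMI in KO replicate 4 and WT replicate 2 and lower in KO replicate 2 and WT replicate 3. Of 9 exhaustion and checkpoint genes 4 fell (Pdcd1, Lag3, Cd160 and Nr4a2) and 1 rose (Ctla4), with a median of −0.27. Pdcd1, the receptor PD-1, fell by 1.59 on the log2 scale and Lag3 by 0.92. The integrin chain Itgb1 fell by 2.40 ± 0.19 and the survival gene Bcl2 by 2.78 ± 0.31.

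Of the cycle lists, G1/S genes were called near the share of all genes (9.36%) and G2/M genes below it, and some chromatin and tubulin genes were lower with a Foxp3 UMI. Mki67 was at 718, 752, 625 and 578 CPM with a Foxp3 UMI and 793, 707, 516 and 818 CPM without (log2 −0.10 ± 0.13, adjusted p = 0.786, edgeR). Of 29 G2/M genes tested 1 fell (Cdca3, called under 5 of 13 alternatives) and none rose, with 2 of 29 above 0 and a median of −0.23. Of 29 G1/S genes 3 rose (the helicase subunits Mcm2, Mcm4 and Mcm6) and none fell, with a median of 0.03. Of 14 replication histone and chromatin genes 5 fell (Stmn1, Tubb5, Tuba1b, H2ax and Hist1h2ap) and none rose, with a median of −0.39. Tubb5, a tubulin, fell by 0.63 on the log2 scale. Of 16 interferon-response genes 4 rose, among them Isg20, Gbp2 and Ly6a, and none fell. Of 15 glycolysis genes 3 rose (Pkm, Ldha and Slc16a3) and none fell. Of 12 dissociation stress genes 7 fell, Fosb by 1.66 on the log2 scale.

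The share of proliferating CD4 cells was compared between genotypes in all 7 mice. They made up 4.89%, 2.82%, 0.897% and 2.76% of T cells in KO replicates 1 to 4 and 3.54%, 6.12% and 5.87% in WT replicates 1 to 3. KO replicates 2, 3 and 4 lay below every WT mouse and KO replicate 1 lay among them. The means were 2.84 ± 1.63% (n = 4) and 5.18 ± 1.42% (n = 3), a difference of −2.33 points that did not pass an exact two-sided permutation test (p = 0.143, smallest possible 0.0286, and 0.429 adjusted over the 3 shares tested). Of CD4 T cells, the share was 7.71 ± 2.89% in KO and 11.8 ± 3.02% in WT, with 3 KO mice below every WT mouse. That difference of −4.09 points did not pass either (exact permutation p = 0.114, not adjusted). Of all cells, the share was 1.48 ± 0.589% in KO and 1.44 ± 0.926% in WT. The share in G2M was 49.8 ± 14.5% in KO (n = 4) and 40.2 ± 6.17% in WT (n = 2), a difference of 9.57 points (exact permutation p = 0.533, smallest possible 0.0667). It was 3.06 points without KO replicate 2 and 5.21 without WT replicate 2, and ran up to 14.0 when each mouse was left out.

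**Figure D4:**
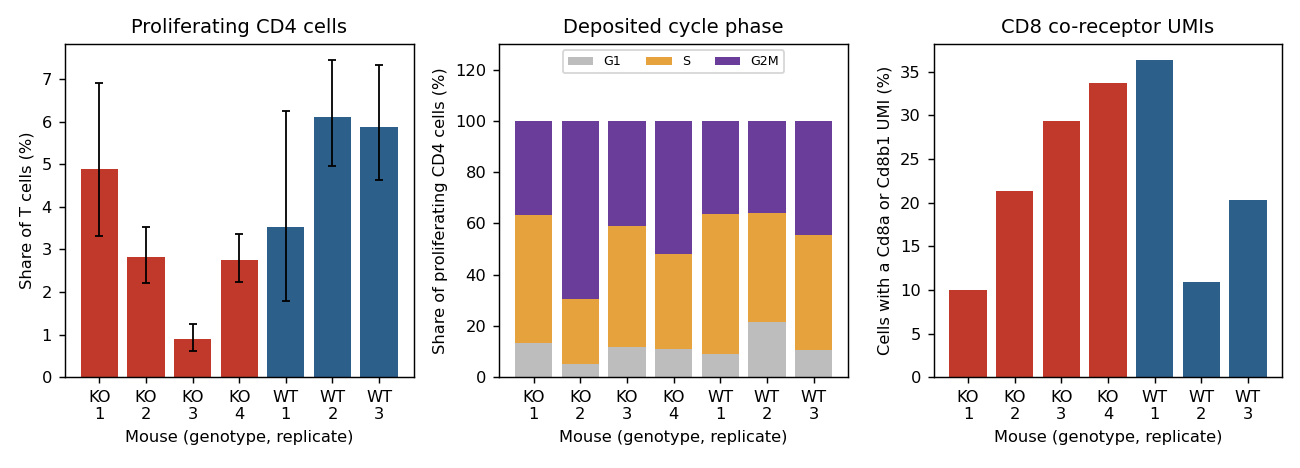
Per mouse, proliferating CD4 cells as a percent of T cells (left, bars with exact 95% binomial intervals), their deposited cycle phase in percent (middle) and the percent with a Cd8a or Cd8b1 UMI (right). The T cell share runs from 0.897% in KO replicate 3 to 6.12% in WT replicate 2, and WT replicate 1 rests on 11 cells.

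Between genotypes 4 of 8102 genes passed in proliferating CD4 cells (0.0494%, edgeR), 2 higher in KO (0.0247%) and 2 lower (0.0247%). The genotype's target Siglece had 13 UMIs in all of these cells and Sall1 none, so neither was tested and neither checks the labels here. Klrk1, the activating receptor NKG2D, was at 75.7, 70.0, 24.3 and 67.7 CPM in KO replicates 1 to 4 and 8.64 and 12.1 CPM in WT replicates 2 and 3 (log2 2.54 ± 0.41, adjusted p = 0.0444, edgeR). WT replicate 1, outside the fit, was at 40.4 CPM and overlapped with KO. In the other T cells Klrk1 was at 247, 284, 267 and 200.2 CPM in KO and 127, 109 and 148 CPM in WT, so KO was above WT there too. Ms4a4b, a membrane protein of T cells, was at 339.7, 372, 299 and 399.7 CPM in KO and 178 and 150.5 CPM in WT, with WT replicate 1 at 338 CPM (log2 1.10 ± 0.18, adjusted p = 0.0397, edgeR). In the other T cells Ms4a4b was at 625, 685, 804 and 718 CPM in KO and 785, 713 and 512 CPM in WT, so the genotypes overlapped there. Both also fell with a Foxp3 UMI, Klrk1 by 3.46 and Ms4a4b by 3.67 on the log2 scale. Neither call held without cells that had a Cd8a or Cd8b1 UMI (log2 2.00 and 0.79, adjusted p = 1.0 for both, edgeR), nor without any one of KO replicates 1, 2 and 4 and WT replicates 2 and 3. When each mouse was left out, the log2 change ran from 2.34 to 2.79 for Klrk1 and from 0.98 to 1.24 for Ms4a4b. Both calls were also lost in cells without a Foxp3 UMI (log2 2.17 and 0.66), and that of Ms4a4b after thinning (log2 0.91, adjusted p = 0.118, edgeR). With WT replicate 1 included (at least 10 cells per mouse) neither passed, Klrk1 at log2 2.12 (adjusted p = 0.401, edgeR) and Ms4a4b at 0.76 (adjusted p = 0.789, edgeR), and 1 of the 4 calls, Trbv29, remained, while Gm6969 was below the filter on low counts there.

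The lower calls were Trbv29, a T cell receptor beta segment, and Gm6969. Trbv29 was at 0, 0, 0 and 0.996 CPM in KO and 105 and 80.2 CPM in WT replicates 2 and 3 (adjusted p = 2.67e-07, edgeR). Pooled, 170 UMIs stood against 1, a ratio of 223 (exact counting interval 39.5 to 8864). The segment was found in 18 and 8 cells of WT replicates 2 and 3, in 1 cell of WT replicate 1 and in 1 cell of the 4 KO mice. In the other T cells it was at 5.72 to 11.1 CPM in KO and 12.7, 60.6 and 31.3 CPM in WT. A receptor segment is shared by the progeny of a clone, so its cells are not independent. In WT replicate 2 Trbv29 was the most frequent beta segment of cells with a Foxp3 UMI, in 16 of 53 with a segment, and of Tregs, in 84 of 184. Gm6969 was at 1.15, 7.50, 10.8 and 7.96 CPM in KO and 54.4 and 60.6 CPM in WT replicates 2 and 3 (log2 −3.09 ± 0.40), but at 0 in WT replicate 1. In the other T cells Gm6969 was at 2.97 to 16.4 CPM in KO and 10.4, 87.4 and 90.5 CPM in WT, and fractional values made up 33.9% of its UMIs.

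No other member of the 17 gene lists passed between genotypes. For comparison, 5.85% of all tested genes had every KO mouse above both WT mice and 5.67% had every KO mouse below. Foxp3 differed by −0.24 ± 0.24 and Mki67 by 0.05 ± 0.16. Of 23 Treg identity genes 6 were above 0 (median −0.27), of 16 glycolysis genes 1 was (median −0.31), and of 30 G2/M genes 25 were (median 0.11), none of them called. Klrd1 did not pass, at 124, 162, 67.6 and 134 CPM in KO against 31.3 and 43.9 CPM in WT (log2 1.72 ± 0.30, adjusted p = 0.11, edgeR).

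**Figure D5:**
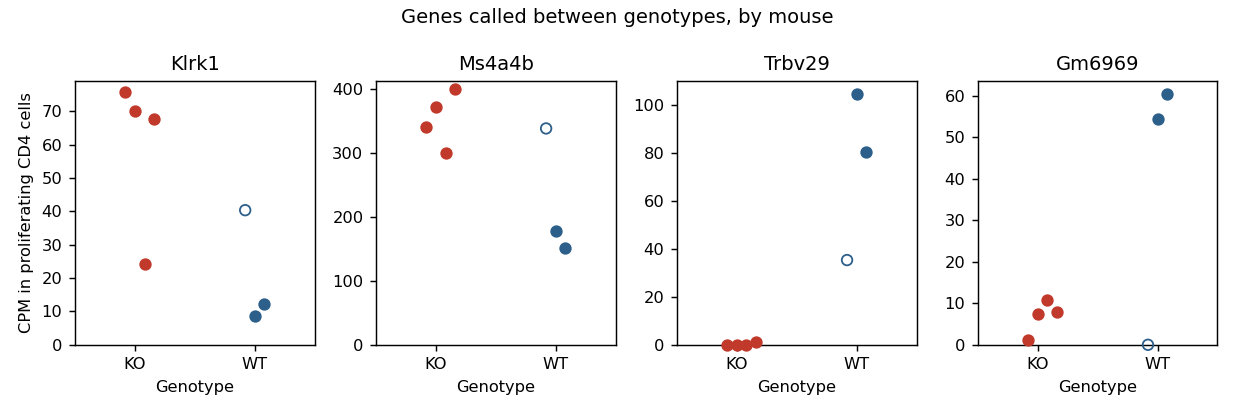
CPM in proliferating CD4 cells per mouse for the 4 genes called between genotypes, with filled points for the mice in the fit and an open point for WT replicate 1 (11 cells), which was not in it. The open point lies among the KO mice for Ms4a4b, at 338 CPM, and for Klrk1, at 40.4 CPM.

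The genotype effect was also set against that in Tregs of the same mice, with an interaction term. Of 8388 genes 4 passed (0.0477%, edgeR), 2 in each direction (0.0238% higher and 0.0238% lower). Atf3, a stress-response transcription factor, was at 32.1, 51.6, 40.5 and 44.8 CPM in proliferating CD4 cells of KO mice and 77.7 and 81.3 CPM in WT. In Tregs it was at 75.9, 78.2, 166 and 144 CPM in KO and 68.3 and 63.8 CPM in WT, so the genotype difference was opposite in the 2 annotations (log2 −1.65 ± 0.32, adjusted p = 0.0228, edgeR). The call was lost without KO replicate 3 or 4 or WT replicate 2 or 3. The other 3 were receptor segments, Trav9-1, Trav7-5 and the immunoglobulin segment Iglv1, each above 20 CPM in no more than 2 mice of either annotation. Such segments have near-identical copies, among which the counting can split reads. The count was 16 without KO replicate 1, 13 without WT replicate 2, and 2 without KO replicate 4 or WT replicate 3.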

How the data were processed

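The proliferating CD4 cells of 7 libraries, 1 per mouse, were analysed at the level of the mouse. The matrix deposited by the authors holds estimated counts of UMIs per gene and cell, and 11.4% of the UMIs of these cells stood in values that are not whole (tolerance 0.01), so sums were rounded. The deposited cell table gives the annotation, the cycle phase and the percent of mitochondrial UMIs, and counts of detected genes. STARsolo, STAR 2.7.10a, FastQC 0.11.5 and build mm10 are named, with no roles, per the submitters' processing notes; cell filters and doublet handling are not given in the sources used here.

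UMIs were summed per mouse and population, and populations under 20 cells in a mouse were left out. Sums were tested with edgeR 4.0.16 (quasi-likelihood, robust, TMM, filterByExpr, Benjamini-Hochberg over all genes tested, threshold 0.05) in R 4.3.3, with mouse as a term for the Foxp3 split and the interaction. Shares were tested with exact two-sided permutation over mice (scipy 1.17.1). For shares of cells, thinning used the expected share with a UMI at a fixed number of UMIs. For gene sums, each cell with at least 5247 UMIs was thinned to that depth by 1 random draw. The design assumed 3 WT mice, and WT replicate 1 had too few cells, so 4 KO were set against 2 WT mice. Sex was read from Xist and Y-linked UMIs, which put KO replicate 1, KO replicate 2 and WT replicate 3 as female. Nothing in the sources says that replicates of a genotype were processed together. Intervals cover counting error only.

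Alternatives were DESeq2 1.42.0, other size factors, no filter, a replicate block, a sex term, thinning, other cell minimums and leaving out each mouse; leaving out cells with a CD8 UMI or with a Foxp3 UMI and the depth of 2000 UMIs were added after the data were seen. Scripts were tested on simulated data. Named genes were called genes with groups that did not overlap or with the same direction in every mouse, up to 10 each way, up to 8 each way per annotation contrast, and members of 17 lists. The members and lists were chosen with earlier results of these data known. Some genes that the rule names are not reported here.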

Additional observations from a re-analysis of the deposited data

Results flagged for a closer look

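In 16 groups of 4 KO mice checked for 1 mouse far from the others, 3 stood out, where chance gives about 1 in 20. Foxp3 in proliferating CD4 cells was highest in KO replicate 1, at 262 CPM against 176 to 185 CPM in the other KO mice. Klrk1 was lowest in KO replicate 3, at 24.3 CPM against 67.7 to 75.7 CPM. Trbv29 had 1 UMI in KO replicate 4 (0.996 CPM) and none in the other KO mice, a pattern in which any single UMI stands out.

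The genotype difference itself differed between proliferating CD4 cells and Tregs for 4 genes (edgeR, interaction term). The difference of the log2 changes was 6.36 for Trav9-1 (adjusted p = 0.00948), 3.89 for Iglv1 (adjusted p = 0.00123), −3.59 for Trav7-5 (adjusted p = 0.0426) and −1.65 for Atf3 (adjusted p = 0.0228). Iglv1 did not pass without KO replicate 4 (1.43) or WT replicate 2 (0.15), and 29.7% of the UMIs of Trav9-1 stood in values that are not whole.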

How the results depend on the processing

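The number of genes called between genotypes was 4 of 8102 tested, and the number tested changed with the setting. It was 27 of 17459 with no filter and 21 of 8897 with the replicate block. With at least 10 cells per mouse (WT replicate 1 included) 2 of 6958 were called. In cells without a Foxp3 UMI it was 1 of 5236, and without cells that had a Cd8a or Cd8b1 UMI 2 of 7111. When each KO mouse was left out, 2 to 6 genes were called, of 7172 to 8334 tested. Same-numbered mice did not deviate together (r = 0.004, 0.048 and −0.133 over 6958 genes), so the numbers were not taken as pairs. With the Foxp3 split, 577 of 6167 genes tested became 230 of 6167 under DESeq2, 292 of 3713 after thinning and 348 of 5283 with no mouse term. Without cells that had a Cd8a or Cd8b1 UMI 321 of 4689 were called. When each mouse was left out, 375 to 632 were called, of 5536 to 6475 tested. The interaction count ran from 2 to 16. The T cell share difference became −4.09 points with CD4 T cells and 0.0435 points with all cells as denominator, and was −2.31 with the replicate block. The Foxp3 share difference ran from −20.2 to 4.32 points when each mouse was left out, and the S phase share differed by −3.71 points where the G2M share differed by 9.57. Thinning left 28 genes lower than in Tregs and 27 lower than in Th1 cells. At 1.5-fold, 566 and 311 genes were higher and lower than in Tregs, 501 and 196 than in Th1 cells, and 210 and 85 than in proliferating CD8 cells. The causes of these shifts were not tested. For the 28 named genes, 291 values under alternatives kept direction and call, 32 kept direction and lost the call, and none reversed. Those of the genotype comparison and the Foxp3 split were named only if called, with groups apart or the same direction in every mouse. Leaving out a mouse could hardly reverse them, so the absence of reversals is no check of their direction. Settings that gave a gene no value are not in these counts, among them the omission of KO replicate 2 or WT replicate 2 for Il2 and Trav13-2, and thinning for Trav13-2.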

Other observations

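The most frequent Trbv segment of proliferating CD4 cells was Trbv5 in KO replicate 1 (9 of 30 cells with a segment), Trbv13-1 in KO replicate 2 (18 of 68) and Trbv26 in KO replicate 4 (17 of 85). It was Trbv13-2 in KO replicate 3 (5 of 29), WT replicate 2 (22 of 85) and WT replicate 3 (17 of 72), and in WT replicate 1 Trbv13-1 and Trbv13-2 had 2 of 10 cells each. Of the 17 Trbv26 cells of KO replicate 4, 8 had a Cd4 UMI and 8 had a Cd8a or Cd8b1 UMI without one. Cells of a clone share a segment, and full receptor sequences were not used here.

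The share of cells with a Foxp3 UMI was set side by side in S and G2M phase, a comparison chosen after its values were seen and given with no test. After thinning to 5247 UMIs it was 51.8 ± 12.4% in S and 34.7 ± 16.0% in G2M over the 6 mice with at least 20 cells, and the difference within a mouse ranged from 0.788 to 46.4 points, higher in S in all 6. In WT replicate 1, with 6 and 4 cells, it was 46.4% in S and 48.2% in G2M.

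The genotype difference in proliferating CD4 cells minus that in Tregs was above 0 for 23 of 25 interferon-response genes (median log2 0.53) and 26 of 30 G1/S genes (median 0.52). It was below 0 for all 12 dissociation stress genes (median −0.51), where the median of all genes was 0.01. Of these genes, Atf3 passed the interaction test. In proliferating CD4 cells alone, KO was above WT for 6 of 19 interferon-response genes (median −0.12). The same held for 20 of 30 G1/S genes (median 0.05) and 7 of 12 dissociation stress genes (median 0.04), so the first counts do not show a rise or fall in these cells.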
